A study of Arabidopsis thaliana with 8 samples.

Results

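The 4 sRNA libraries of the *hot3* alleles were compared with the 4 libraries of plants that have functional HOT3, window by window along the nuclear chromosomes. The members were 100-bp windows of chromosomes 1 to 5 outside rDNA that reached 10 counts in 2 or more libraries at a given length from 18 nt to 26 nt. Of 1196681 windows in the deposited counts, 1191216 were nuclear and outside rDNA, 27412 of these were tested in at least 1 length, and 693 were called in at least 1 length. *HOT3* (AT1G76810) encodes the translation initiation factor eIF5B, which joins the ribosomal subunits and also takes part in maturation of 18S rRNA. *hot3-2* (SALK_124251) and *hot3-3* (SAIL_1147_G06) carry T-DNA insertions in this gene, WT was Col-0, and *HOT3-EYFP* is *hot3-2* that carries *HOT3::HOT3-EYFP*, a fusion under the *HOT3* promoter. Each genotype had 2 libraries from 18-day-old seedlings, grown at 23 °C by the labels. The study describes the replicates of a genotype as independent without saying whether they were planted separately, so the *P* values below measure the spread among these libraries.

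Plant sRNAs are cut from double-stranded RNA by Dicer-like (DCL) proteins whose products differ in length. DCL1 excises miRNAs, mostly of 21 nt, from short hairpins, DCL4 makes 21-nt siRNAs, DCL2 makes 22-nt siRNAs, and DCL3 makes the 24-nt siRNAs that guide DNA methylation at transposons and repeats. Double-stranded RNA can arise when RDR6 copies a cleaved transcript, as at *TAS* genes and some coding genes, or when an inverted repeat is transcribed into a long hairpin, which several DCL proteins then cut side by side. Abundant RNAs such as tRNAs, snoRNAs and mRNAs also leave fragments that are read in the same size range, without a fixed length. The lengths at a locus, its neighbors and its sequence therefore describe what kind of source it is.

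The longest run of windows that were higher in the *hot3* alleles lay on an inverted repeat of chromosome 3. In TAIR10 its arms run from chr3:1963723-1966967 and chr3:1967205-1970450, with 237 bp between them, and a 3249-bp alignment of the arms has 98.9% identity. The 60 bases that follow are shown because the plus strand of the right arm (chr3:1967500-1967559) and the minus strand of the left arm (chr3:1966613-1966672) are identical there, so that a transcript through both arms pairs with itself and a short read cannot be assigned to one arm.
right arm, plus strand: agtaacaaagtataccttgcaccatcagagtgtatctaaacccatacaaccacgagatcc
left arm, minus strand: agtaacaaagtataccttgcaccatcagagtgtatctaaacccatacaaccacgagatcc

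An intergenic inverted repeat of chromosome 1 was also among the loci with the most windows. Its arms are less alike, and capitals mark the base that differs in 48 bases of the plus strand (chr1:27636001-27636048) and of the minus strand (chr1:27635806-27635853).
plus strand: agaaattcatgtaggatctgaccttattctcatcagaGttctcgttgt
minus strand: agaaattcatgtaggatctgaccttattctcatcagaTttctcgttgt

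The miRNAs on which the results turn are printed from RefSeq (TAIR10.1), with the seed, bases 2 to 8, in capitals. No pair of them shares a seed. The first 7 belong to genes with windows that were higher in the *hot3* alleles and the last 4 to genes with windows that were lower.
miR845a: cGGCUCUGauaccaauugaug
miR845b: uCGCUCUGauaccaaauugaug
miR843: uUUAGGUCgagcuucauugga
miR866-3p: aCAAAAUCcgucuuugaaga
miR829-5p: aCUUUGAAgcuuugauuugaa
miR5026: aCUCAUAAgaucgugacacgu
miR173-3p: uGAUUCUCuguguaagcgaaa
miR167a-5p: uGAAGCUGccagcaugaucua
miR164c-5p: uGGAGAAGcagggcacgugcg
miR160c-5p: uGCCUGGCucccuguaugcca
miR166a-3p: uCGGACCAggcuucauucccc

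Total counts ranged from 6793502 to 8210328 per library. Nuclear windows outside rDNA held 45.4% to 51.0% of the counts in the *hot3* alleles and 32.2% to 42.1% in plants with functional HOT3, while the share of rDNA was 33.7% to 40.8% against 44.1% to 52.2%. The chloroplast held 13.0% to 14.7% and 13.2% to 14.8%. The lengths 18 nt to 20 nt together held 21.6% to 22.2% of the nuclear counts outside rDNA in the alleles and 16.7% to 19.7% in the others. The nuclear, rDNA and 18-nt to 20-nt shares did not overlap between the sides of the comparison, whereas that of the chloroplast did, and their part in the window calls was not tested. Counts were scaled within each length by TMM, a factor from the bulk of windows, so calls are relative to the other nuclear windows of that length.

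*HOT3* itself held 17 and 19 counts in *hot3-2* and 28 and 24 in *hot3-3*, against 17 and 29 in WT and 533 and 471 in *HOT3-EYFP*. None of its windows was called. These sRNAs set the transgenic line apart from the other 3 genotypes and do not measure *HOT3* mRNA.

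Changed windows were counted at each length by edgeR's quasi-likelihood test, at a Benjamini-Hochberg adjusted *P* under 0.01 within the length and a fold change of at least 2. At 18 nt, 78 windows (6.62% of 1178 tested) were higher in the *hot3* alleles and 49 (4.16%) were lower. At 19 nt, 96 (6.77% of 1418) were higher and 59 (4.16%) lower, and at 20 nt, 121 (6.54% of 1849) were higher and 88 (4.76%) lower. The share of tested windows that were called was smaller at each greater length from 20 nt to 24 nt. At 21 nt, 167 (4.1% of 4078) were higher and 111 (2.72%) lower, at 22 nt, 141 (1.81% of 7809) were higher and 101 (1.29%) lower, at 23 nt, 120 (1.03% of 11666) were higher and 71 (0.609%) lower, and at 24 nt, 167 (0.645% of 25902) were higher and 82 (0.317%) lower.

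At 25 nt and 26 nt the test called 0% of 723 and 0% of 443 windows in either direction, whereas 214 and 147 had an unadjusted *P* under 0.05. DESeq2's Wald test with the same limits called 36 higher and 25 lower at 25 nt, and 22 higher and 11 lower at 26 nt. With the 9 lengths summed, 376 of 51457 windows (0.731%) were higher and 534 (1.04%) lower. At each length the alleles' 4 libraries lay beyond the 4 others in CPM in all called windows, except 4 lower at 22 nt. The same libraries chose these windows, so this is no further support, and the share over all tested windows was not counted. The split of the calls depended on the scaling. With the library total as library size, which moved the median log2 ratio of all tested windows to 0.42 (21 nt), 0.43 (22 nt) and 0.17 (24 nt), 245 windows were higher and 44 lower for 21 nt. The counts were 271 and 36 for 22 nt, and 184 and 17 for 24 nt.

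Single libraries moved some counts by over 1.5 times. At 18 nt, leaving out any 1 library gave 37 to 49 higher windows, fewest without *hot3-2* replicate 1, and 9 to 33 lower ones, with 33 without WT replicate 2 the only count within 1.5 times. At 19 nt the lower windows numbered 25 and 22 without *hot3-2* replicates 1 and 2, 28 without *hot3-3* replicate 1, 35 without WT replicate 2, and 24 and 32 without *HOT3-EYFP* replicates 1 and 2, and the higher ones numbered 56 without *HOT3-EYFP* replicate 1. At 20 nt there were 43 and 47 lower windows without *hot3-2* replicates 1 and 2, 55 and 54 without *hot3-3* replicates 1 and 2, and 58 without *HOT3-EYFP* replicate 1. The lower windows numbered 63 at 21 nt and 55 at 22 nt without *hot3-2* replicate 1, and 62 and 51 without *hot3-2* replicate 2. At 24 nt the higher and the lower windows numbered 98 and 32 without *hot3-2* replicate 1, 100 and 37 without *hot3-2* replicate 2, 102 and 39 without *hot3-3* replicate 1, 103 and 45 without *hot3-3* replicate 2, and 110 and 53 without WT replicate 2. At 23 nt they numbered 68 and 21 without *hot3-2* replicate 1, 64 and 23 without *hot3-2* replicate 2, 69 and 31 without *hot3-3* replicate 1, 70 and 23 without *hot3-3* replicate 2, and 74 and 42 without WT replicate 2, and the lower ones 35 without *HOT3-EYFP* replicate 1.

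Over the 9 lengths, 374 windows were higher in at least 1 length, 319 were lower, and 0 were called in both directions. Of the higher windows, 205 were called at a single length and 27 at 7 lengths. Of the lower windows, 186 were called at a single length and 2 at 7 lengths. Windows that were called at 21 nt, 22 nt and 24 nt together numbered 72 among the higher and 4 among the lower. Of the 72, 32 were adjacent windows of a single locus, the right arm of the chromosome 3 repeat. The 72 are therefore not separate sources. Calls at 24 nt alone were made in 63 higher and 52 lower windows, and calls at 21 nt alone in 45 and 36.

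Adjacent windows called in 1 direction were joined into loci, which were chosen from the calls and are therefore described without a test. The higher windows formed 31 loci with 142 windows (14.2 kb), and 232 windows stood alone. The lower windows formed 35 loci with 94 windows (9.4 kb), and 225 stood alone. The higher loci thus held 38.0% of the higher windows and the lower loci 29.5% of the lower windows. Of these loci, 20 higher and 24 lower ones had only 2 windows. With the library total as library size there were 57 higher and 10 lower loci. Without *hot3-2* replicate 1 there were 19 higher and 17 lower loci, and the lower loci numbered 16 without *hot3-2* replicate 2, 21 and 23 without *hot3-3* replicates 1 and 2, and 20 without *HOT3-EYFP* replicate 1.

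Along the chromosomes, called windows were spread over most bins of 1 Mb, with a single dense cluster. Of 121 bins, 90 held a window that was higher in the *hot3* alleles and 103 held a lower one. One bin of chromosome 3 held 65 higher windows, the next had 17, and the bin with the most lower windows had 20. The share of tested windows that were higher was 2.05% on chromosome 3 and between 0.84% and 1.41% on the other 4 chromosomes, and the lower share was between 0.862% and 1.31% on all 5.

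**Figure D1:**
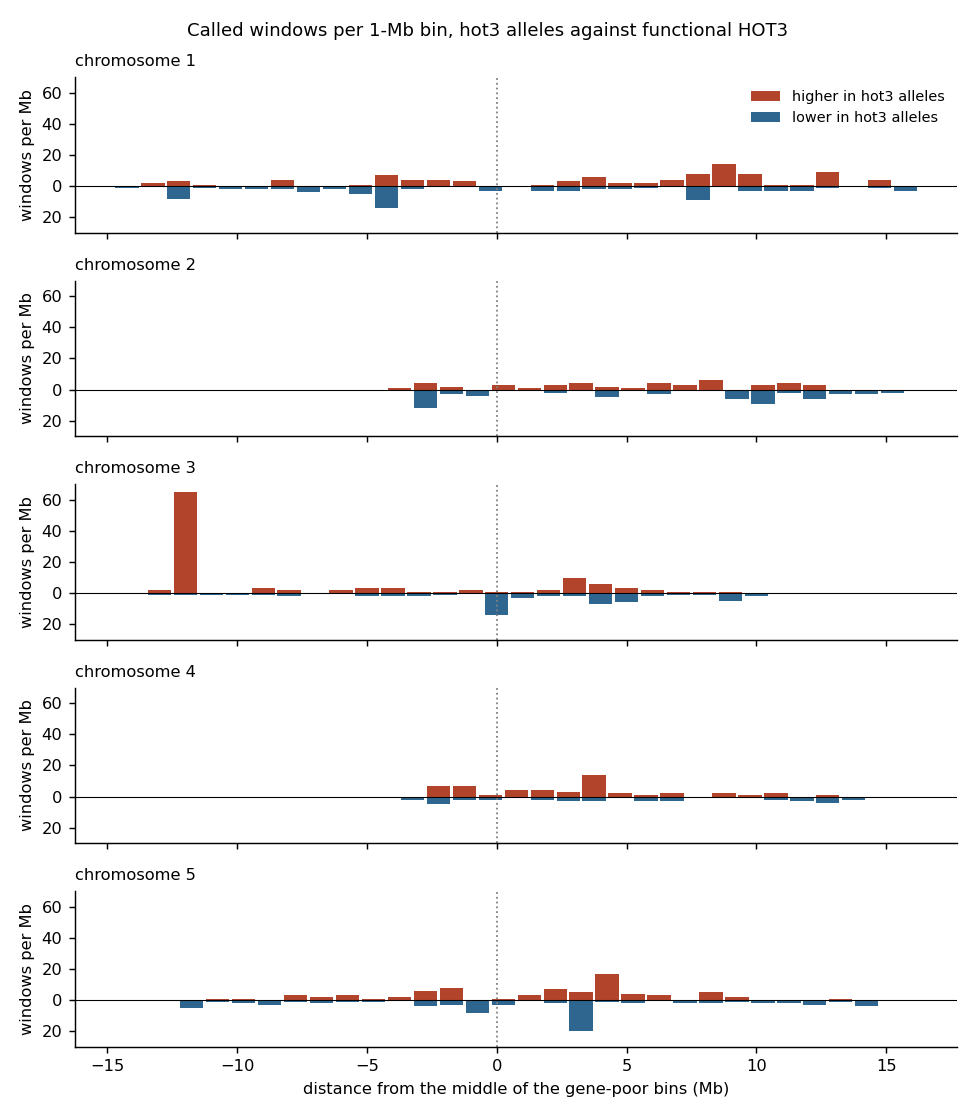
Number of 100-bp windows called in at least 1 length per 1-Mb bin, drawn upward for windows higher in the *hot3* alleles and downward for windows lower in them, by distance in Mb from the middle of the gene-poor bins of each chromosome. The bin with 65 higher windows on chromosome 3 stands above all others, and the next has 17.

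Taken over the 9 lengths, a smaller share of the called windows than of the tested windows lay in gene-poor sequence. Gene-poor bins, 48 of 240 bins of 500 kb with under 35% of their bases in protein-coding genes, lie around the centromeres, where transposons are dense. They held 37.5% of the tested windows, 15.8% of the higher windows and 20.7% of the lower windows. The share called was 0.573% higher and 0.641% lower in gene-poor bins, against 1.84% and 1.48% in gene-rich bins. At 24 nt, the length of siRNAs from transposons, 22 of 167 higher windows and 14 of 82 lower windows were gene-poor, against 38.2% of the tested windows. At 22 nt, 16 of 141 higher and 25 of 101 lower windows were, against 30.3% of the tested windows. At 21 nt the lower windows did not share the pattern, since 22.5% of them and 23.8% of the tested windows were gene-poor, against 6.59% of the higher windows. A single gene-rich source, the chromosome 3 repeat, accounts for 62 of the 141 higher windows of 22 nt. It also holds 61 such windows of 21 nt and 57 of 24 nt. Its adjacent windows lower the gene-poor share of the higher windows, and the share without them was not computed.

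The annotation of the windows also differed between the directions. snoRNA or snRNA genes had the greatest share of higher windows, 21% of their tested windows against 0.725% lower. *MIR* genes had 12.2% of their tested windows higher and 13.9% lower, and tRNA genes 1.15% higher and 7.63% lower. Protein-coding genes held 11.5% of the tested windows, 20.9% of the higher windows and 37.9% of the lower windows. Intergenic windows made up 71.7% of those tested, 49.7% of the higher and 35.4% of the lower. By gene, 137 of 3658 genes with a tested window had a higher window (3.75%) and 145 had a lower one (3.96%). Without *hot3-2* replicate 2 these numbered 86 and 93, and without *hot3-2* replicate 1 the lower ones were 87. Windows in which fewer than 50% of the 21-mers occur once in the nuclear genome made up 33.4% of those tested, 29.4% of the higher and 29.8% of the lower.

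Windows of inverted repeats were frequent among the higher windows. A window was counted as one when at least 20 of its 20-mers had their reverse complement within 5 kb, a measure added after the calls were seen. These windows were 1.91% of those tested, 17.6% of the higher and 4.08% of the lower, and 12.6% of the tested ones were higher. Of the 66 higher ones, 24 lay in each of the 2 longest loci, which are on the chromosome 3 repeat. By local alignment of each locus with the 5 kb on either side, 10 of the 31 higher loci and 4 of the 35 lower loci lay in an inverted alignment of at least 200 bp. Neighboring loci shared such alignments, which came to 7 separate repeats with higher loci and 3 with lower loci. Among these, a higher one is the stretch that holds *MIR5026*, and a lower one has the *CAB1* locus in an arm. Where a stretch aligned with its own reverse complement, the length counts the whole stretch and not an arm. Sequence outside the loci was not aligned, so these counts have no background share. The 5-window locus at the outer end of the chromosome 3 repeat is not among the 10, since its partner lies beyond that reach.

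The repeat on chromosome 3 whose arms are shown above spans 68 windows, with 3 loci of 5, 27 and 32 adjacent higher windows. The noncoding RNAs AT3G01835, AT3G01845 and AT3G00220 and the uncharacterized proteins AT3G06435 and AT3G06436 are annotated on it. It held 2.34% and 2.30% of the nuclear counts outside rDNA in *hot3-2* and 2.44% and 2.46% in *hot3-3*, against 0.558% and 0.563% in WT and 0.667% and 0.651% in *HOT3-EYFP*. The 4 libraries of the alleles were close to each other and all lay above the 4 others. At 22 nt the repeat gave 7.96% and 7.86% of the nuclear counts in *hot3-2* and 8.63% and 8.78% in *hot3-3*, against 1.98% and 2.02% in WT and 2.25% and 2.20% in *HOT3-EYFP*.

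Levels over this repeat were higher in the alleles at every length from 18 nt to 26 nt. Counts of 22 nt were 33287 and 34372 in *hot3-2* and 33691 and 34661 in *hot3-3*, against 5712 and 6108 in WT and 6140 and 5039 in *HOT3-EYFP*. The log2 ratio of mean levels was 2.07 at 21 nt, 2.10 at 22 nt and 1.69 at 24 nt, and at the other lengths it was 2.21 (18 nt), 2.11 (19 nt), 2.19 (20 nt), 1.77 (23 nt), 1.68 (25 nt) and 1.77 (26 nt). At 25 nt and 26 nt, 6 and 0 of its windows were tested and none was called. Of the windows tested, 61 of 66 were higher at 21 nt, 62 of 65 at 22 nt and 57 of 65 at 24 nt. The share of 22-nt reads in the locus of the right arm was 39.6% in the alleles and 35.3% in plants with functional HOT3, and the share of 24-nt reads was 18.2% against 25.5%. In the 3 loci, between 17.4% and 29.0% of the 21-mers occur once in the genome, so the deposited counts do not fix which arm a read came from.

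**Figure D2:**
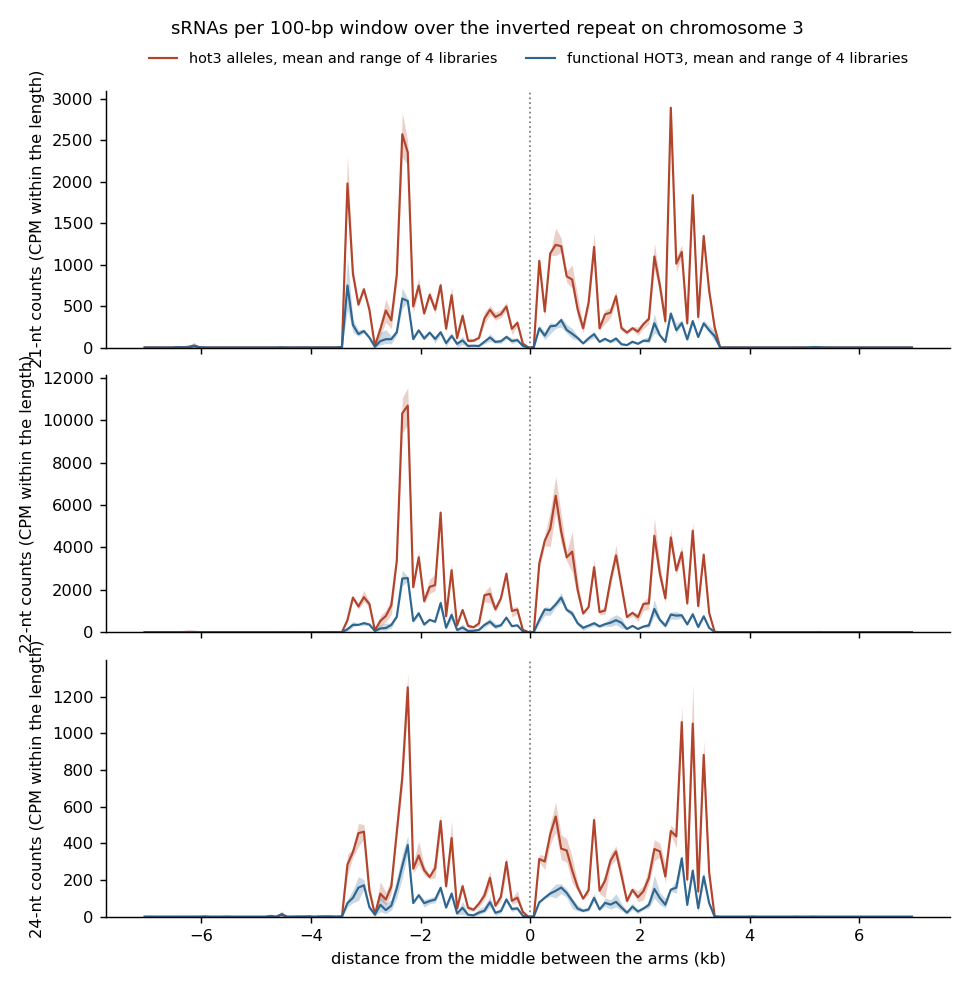
Counts of 21-nt, 22-nt and 24-nt sRNAs per 100-bp window, in CPM within the length (counts scaled to the TMM-adjusted total of the tested windows), by distance in kb from the middle between the arms of the inverted repeat on chromosome 3. Lines are means and shading is the range of the 4 libraries of the *hot3* alleles and of the 4 libraries with functional HOT3. The level is higher in the alleles along both arms at all 3 lengths, with log2 ratios of 2.07, 2.10 and 1.69, and ends at the limits of the arms.

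Other higher loci with mixed lengths were shorter inverted repeats. At AT5G41765, annotated as related to a DNA-binding storekeeper protein, 10 windows (chr5:16716100-16717099) held 2876 and 3177 counts in *hot3-2* and 2391 and 2607 in *hot3-3*, against 285 and 243 in WT and 320 and 219 in *HOT3-EYFP*. The groups were far apart, with a log2 ratio of 2.97, and 35.1% of the reads were of 24 nt. A 1406-bp stretch there aligned with its own reverse complement at 81.9% identity, and 96.1% of its 21-mers occur once in the genome. The intergenic repeat of chromosome 1 printed above (7 windows, chr1:27635500-27636199, 510 bp from AT1G73490) held 720 and 764 counts in *hot3-2* and 531 and 480 in *hot3-3*, against 43 and 71 in WT and 43 and 24 in *HOT3-EYFP*. Its log2 ratio was 3.42, and its leading length was 22 nt with 29% of the reads.

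At AT3G44570, a retrotransposon ORF-1 protein, and its neighbor AT3G44580, a 3365-bp inverted alignment of 90.7% identity held loci of 4 and 2 higher windows. The locus of AT3G44570 had 794 and 776 counts in *hot3-2* and 646 and 706 in *hot3-3*, against 265 and 312 in WT and 239 and 209 in *HOT3-EYFP*, with a log2 ratio of 1.13. Over the locus of AT3G44580 the log2 ratio was 0.68. Of the 29 transposable element genes measured, AT3G44570 had a higher window and AT2G13450 a lower one. That is 3.45% in each direction, close to the 3.75% higher and 3.96% lower over all genes measured. The list's median log2 ratio was -0.15 against 0.09 over all genes measured. Its share of the nuclear counts was 0.259% to 0.284% in the alleles and 0.232% to 0.241% in the others, without overlap. The log2 ratio of AT2G13450 was -0.26, and it was 0.0745 with the library total as library size.

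A second kind of higher locus had 21 nt as its leading length. *TAS* genes are noncoding transcripts that a miRNA cleaves and RDR6 copies, after which DCL4 cuts phased 21-nt tasiRNAs. Of the 8 *TAS* genes measured, 5 had a higher window (*TAS1A*, *TAS1B*, *TAS2*, *TAS3b* and *TAS4*) and 1 had a lower one (*TAS1C*), with a median log2 ratio of 0.50. That is 62.5% and 12.5%, against 3.75% higher and 3.96% lower over all genes measured. *TAS2* (AT2G39681) held 58934 and 59860 counts in *hot3-2* and 51248 and 51144 in *hot3-3*, against 21738 and 22947 in WT and 18838 and 15695 in *HOT3-EYFP*. Its 3 adjacent windows (chr2:16539700-16539999) had a log2 ratio of 1.10, and the alleles lay above all 4 others.

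*TAS4* (AT3G25795), which is cut by miR828 and yields a tasiRNA against *MYB* genes of anthocyanin synthesis, had the greatest log2 ratio among the *TAS* genes, 2.73. It held 2470 and 2699 counts in *hot3-2* and 3384 and 3478 in *hot3-3*, against 243 and 329 in WT and 461 and 331 in *HOT3-EYFP*. *MIR828*, named after its values were seen, had 15 and 15 counts in *hot3-2* and 25 and 20 in *hot3-3*, against 0 and 3 in WT and 1 and 1 in *HOT3-EYFP*, with no window called. *TAS3b* had a log2 ratio of 1.65 at 240 and 213 counts in *hot3-2* and 180 and 209 in *hot3-3*, against 74 and 63 in WT and 51 and 23 in *HOT3-EYFP*.

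*TAS1* genes, whose transcripts miR173 cuts as it does that of *TAS2*, gave small differences over the whole gene. The log2 ratio was 0.39 for *TAS1A*, 0.22 for *TAS1B* and -0.28 for *TAS1C*, and the groups overlapped for *TAS1B* and *TAS1C*. The called window of *TAS1B* is also that of *MIR5636*, and counts of the 2 genes cannot be told apart there. *MIR173* held 16685 and 17320 counts in *hot3-2* and 14324 and 14479 in *hot3-3*, against 5273 and 5607 in WT and 5492 and 4807 in *HOT3-EYFP*, a log2 ratio of 1.17. Its called window holds miR173-3p, from the arm opposite to the one that cuts *TAS* transcripts. At 21 nt that window held 12471 and 12894 counts in *hot3-2* and 10283 and 10417 in *hot3-3*, against 3226 and 3521 in WT and 3864 and 3431 in *HOT3-EYFP*. Its log2 fold change was 1.25 (edgeR, adjusted *P* = 2.92e-05), with a derived standard error of 0.12. The window of miR173-5p at 22 nt was not called, since its log2 fold change of 0.69 with a standard error of 0.13 (edgeR, adjusted *P* = 0.00303) is less than 2-fold.

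Pentatricopeptide repeat (PPR) genes are targets of miR161 and of tasiRNAs from *TAS2*, and give 21-nt siRNAs of their own. Of 13 PPR genes measured, taken by product text, 2 had higher windows (15.4%, against 3.75% of all genes measured). Lower windows were found in 0, against 3.96% of all genes measured, and the list's median log2 ratio was 0.50. AT1G62910 held 3390 and 3404 counts in *hot3-2* and 2495 and 2703 in *hot3-3*, against 1168 and 1235 in WT and 1006 and 748 in *HOT3-EYFP*, a log2 ratio of 1.15, and 69.7% of its reads were of 21 nt. Its neighbor AT1G62914 had a log2 ratio of 0.88. The 5-window locus in AT1G63150 (chr1:23419900-23420399), annotated as tetratricopeptide repeat-like, had 5096 and 5343 counts in *hot3-2* and 5122 and 5004 in *hot3-3*, against 2008 and 1981 in WT and 1617 and 1305 in *HOT3-EYFP*, with 74.3% of 21 nt and a log2 ratio of 1.2. *MIR161* had a log2 ratio of -0.02 and overlapping groups, and its 2 windows were called at 20 nt only.

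*MIR* genes moved in both directions. Of 206 measured, 32 had a higher window (15.5%, against 3.75% of all genes measured) and 34 a lower one (16.5%, against 3.96%). The list's median log2 ratio was -0.08. With the library total as library size 41 had a higher and 13 a lower window. The miR845 family is known from pollen, where it targets the tRNA primer-binding sites of retrotransposons. *MIR845a* held 25623 and 30214 counts in *hot3-2* and 22379 and 24042 in *hot3-3*, against 264 and 241 in WT and 382 and 220 in *HOT3-EYFP*. Its log2 ratio was 6.12, next to that of *MIR845b* at 6.26, and these were the greatest among the *MIR* genes with a higher window.

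The window of miR845a at 21 nt had a log2 fold change of 6.09 (standard error 0.20, adjusted *P* = 3.06e-09 from edgeR). The window of miR845b at 22 nt held 869 and 913 counts in *hot3-2* and 704 and 822 in *hot3-3*, against 6 and 4 in WT and 14 and 5 in *HOT3-EYFP*, with a log2 fold change of 6.34 (standard error 0.28, adjusted *P* = 1e-10 from edgeR). *MIR845a* and *MIR845b* were the whole list of pollen markers, and both were higher, at 7725 to 9350 CPM against 90.2 to 170 CPM for *MIR845a* and 254 to 297 CPM against 1.5 to 7.59 CPM for *MIR845b*. The libraries came from seedlings, and the part of a cell type in this difference was not tested. In bulk tissue, more cells of a type and more RNA per cell cannot be told apart.

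The next greatest ratios among the *MIR* genes were those of *MIR843* and *MIR859*. *MIR843* held 5650 and 6211 counts in *hot3-2* and 5308 and 5446 in *hot3-3*, against 337 and 366 in WT and 142 and 118 in *HOT3-EYFP*, a log2 ratio of 4.23. *MIR859* had a log2 ratio of 4.07, *MIR5028* of 3.42 and *MIR866* of 2.93. *MIR826a* and *MIR826b* lie on opposite strands and share their called window, so their shared log2 ratio of 3.56, from at most 3 counts in a library with functional HOT3, belongs to either. *MIR829* (2.35) and *MIR775* (1.13) also formed loci. *MIR5026*, which lies in an intron of the noncoding RNA AT4G13495, held 34313 and 32963 counts in *hot3-2* and 25473 and 24921 in *hot3-3*, against 7039 and 7094 in WT and 8044 and 6376 in *HOT3-EYFP*, a log2 ratio of 1.64.

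snoRNA genes made up a further group of higher windows. snoRNAs guide the methylation and pseudouridylation of rRNA, and their reads showed no common length. Of 113 measured, 29 had a higher window (25.7%, against 3.75% of all genes measured) and 2 a lower one (1.77%, against 3.96%). The list's median log2 ratio was 0.90. With the library total as library size 47 had a higher window. Leaving out single libraries gave 15 to 22, with 16 and 15 without *hot3-2* replicates 1 and 2, 15 and 17 without *hot3-3* replicates 1 and 2, 19 and 18 without WT replicates 1 and 2, and 19 without *HOT3-EYFP* replicate 1. They held 0.547% and 0.543% of the nuclear counts in *hot3-2* and 0.581% and 0.594% in *hot3-3*, against 0.321% and 0.317% in WT and 0.372% and 0.369% in *HOT3-EYFP*. The 8 with the greatest ratios were AT5G44286 (2.15), AT3G03415 (2.11), AT1G04223 (1.78), *U60.2F* (1.65), AT1G07593 (1.63), AT4G06320 (1.61), *SNOR30* (1.59) and *U60.1F* (1.57) on the log2 scale.

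*SNOR30* held 1386 and 1549 counts in *hot3-2* and 1467 and 1684 in *hot3-3*, against 311 and 308 in WT and 481 and 406 in *HOT3-EYFP*. The 2 snoRNA genes with a lower window, AT1G04527 and AT2G08390, share that window with a tRNA-Gly gene (AT1G06880 and AT2G30450), and the 2 kinds of RNA cannot be told apart there. With only *hot3-2* or only *hot3-3* as the mutant, 7 and 6 snoRNA genes had a higher window. With only WT or only *HOT3-EYFP* as the control, 22 and 8 did. Of 19 snRNA genes, 0 had a higher window and 1 a lower one (5.26%, against 3.96% of all genes measured), *U6.6* at a log2 ratio of -1.40.

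The higher locus with the most reads after *TAS2* was made of shorter ones. It is an intergenic pair of windows (chr5:4162100-4162299, 75 bp from AT5G13120) with 48189 and 55888 counts in *hot3-2* and 53043 and 57570 in *hot3-3*, against 8606 and 9691 in WT and 12886 and 11501 in *HOT3-EYFP*. Reads of 18 nt were 49.4% of the total and reads of 18 nt to 20 nt were 97.3%. Its log2 ratio was 1.91.

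Some windows had counts in the alleles and 0 in all 4 libraries with functional HOT3, and these were picked after their values were seen. The window of the tRNA-Ala gene AT1G07580 held 1699 and 2060 counts in *hot3-2* and 2625 and 785 in *hot3-3*, at least 452-fold higher by a floor of 3 counts per library. Only 42% of its 21-mers occur once in the genome, and the replicates of *hot3-3* differed widely. The part of read placement among copies in this value was not tested. An intergenic window of chromosome 2 (chr2:7677900-7677999), with 94% of its 21-mers found once, held 67 and 79 counts in *hot3-2* and 58 and 58 in *hot3-3*, at least 16.4-fold higher. It was called at 23 nt and 24 nt. Such windows on chromosome 1 (chr1:2800600-2800699) and chromosome 3 (chr3:13777000-13777099), with 22% and 13% unique 21-mers, were at least 29.3-fold and 7.16-fold higher. The first held 56 and 127 counts in *hot3-2* and 144 and 135 in *hot3-3*. The other held 62 and 44 counts in *hot3-2* but only 5 and 6 in *hot3-3*, close to the floor, so its bound rests mainly on *hot3-2*.

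Among the lower loci, the longest lay in a single disease resistance gene. AT5G38850 encodes a TIR-NBS-LRR protein, a class of immune receptors whose transcripts miRNAs such as miR825-5p cut and RDR6 turns into 21-nt siRNAs. The gene held 538 and 552 counts in *hot3-2* and 398 and 382 in *hot3-3*, against 2986 and 3023 in WT and 1089 and 947 in *HOT3-EYFP*. The level fell in both alleles relative to both other genotypes, and that of *HOT3-EYFP* lay between the alleles and WT. The loci of 14 and 2 adjacent windows (chr5:15555400-15556799 and chr5:15556900-15557099) had log2 ratios of -2.51 and -1.63.

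Reads of 21 nt made up 64.2% of the 14-window locus and reads of 24 nt 0.841%, and 95.6% of its 21-mers occur once in the genome. Its window with the most 21-nt reads (chr5:15555500-15555599, plus strand) is coding sequence throughout and is printed because the drop rests on unique sequence.
AT5G38850 window: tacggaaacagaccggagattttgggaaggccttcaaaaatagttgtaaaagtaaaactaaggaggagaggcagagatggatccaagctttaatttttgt

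Of 22 genes with a disease resistance product measured, 0 had a higher window, against 3.75% of all genes measured. A lower one was found in 2 (9.09%, against 3.96% of all genes measured), 1 of them AT5G38850. The list's median log2 ratio was -0.10. The other gene with a lower window is AT1G12290, at a log2 ratio of -0.44. Its called window is that of *MIR472*, a miRNA that targets such genes, so that the 2 cannot be told apart. *MIR825*, named after its values were seen, had 65 and 63 counts in *hot3-2* and 53 and 71 in *hot3-3*, against 105 and 107 in WT and 61 and 55 in *HOT3-EYFP*, a log2 ratio of -0.72 with no window called.

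Genes of the photosynthetic antenna and photosystems gave most of the other long lower loci. Light-harvesting proteins bind chlorophyll around the photosystems and are among the most abundant mRNAs of green tissue. The list was drawn up after the loci were seen, so its count is a description. Of 34 genes measured, 21 had a lower window (61.8%, against 3.96% of all genes measured) and 0 a higher one (against 3.75%). The list's median log2 ratio was -1.62 against 0.09 over all genes. The genes of this list held 0.232% and 0.244% of the nuclear counts in *hot3-2* and 0.283% and 0.277% in *hot3-3*, against 0.590% and 0.613% in WT and 0.917% and 0.921% in *HOT3-EYFP*. With only *hot3-2* or only *hot3-3* as the mutant, 12 and 4 of them had a lower window, 9 did with only WT as the control, and 16 did with the library total as library size. Without *HOT3-EYFP* replicate 1 the number was 13.

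*CAB1* (AT1G29930), a chlorophyll a/b-binding protein, had a locus of 4 windows (chr1:10478600-10478999) with 315 and 354 counts in *hot3-2* and 394 and 385 in *hot3-3*, against 611 and 683 in WT and 881 and 844 in *HOT3-EYFP*, a log2 ratio of -1.48. *LHCA3*, of the photosystem I antenna, had a 3-window locus with 100 and 115 counts in *hot3-2* and 149 and 138 in *hot3-3*, against 295 and 375 in WT and 519 and 467 in *HOT3-EYFP*, a log2 ratio of -2.14. Loci of 3 windows also lay in *LHCB2.1* (-2.03) and *CAB3* (-1.63). The loci of 4 and 3 windows at *LHB1B2* (-1.91 and -1.73) overlap the noncoding RNA AT2G08665, and without strand the 2 genes cannot be told apart.

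Over whole genes, *LHB1B1* had a log2 ratio of -2.0, *LHCA3* of -1.88, *PSBO2* of -1.87, *PSAK* of -1.81, *PSAO* of -1.77, *LHCB2.1* and *LHB1B2* of -1.76, and *LHCA4* of -1.69. Smaller loci lay in *LHCA4*, *LHCB2.2*, *PSAL*, *PSBW* and *LHCB5*. At these genes no length led: the most frequent length held 13.6% of the reads at *CAB1* and 13.3% at *LHCA3*. *CAB1*, *CAB2*, *CAB3*, *LHCB2.1* and *LHCB2.2* are near-identical copies in part, and between 22% and 73% of the 21-mers occur once in the genome at the 3-window and 4-window loci of *CAB1*, *CAB3*, *LHCB2.1* and AT2G08665, whereas all do at *LHCA3*.

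Other lower loci without a leading length were noncoding or uncharacterized. AT1G07017, a noncoding RNA in gene-poor sequence of chromosome 1, had 3 windows with 4618 and 4578 counts in *hot3-2* and 4826 and 4958 in *hot3-3*, against 7566 and 8208 in WT and 10465 and 9286 in *HOT3-EYFP*, a log2 ratio of -1.32. AT2G31141, an uncharacterized protein, had 3 windows at -1.48, and AT4G04595, an uncharacterized RNA, had 3 windows at -1.07. Reads of 18 nt to 20 nt made up 43.1%, 39% and 37.5% of these loci.

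Of the *MIR* genes with lower windows, several encode conserved miRNAs of leaf development. *MIR167a*, whose product targets auxin response factors, held 2885 and 2808 counts in *hot3-2* and 2559 and 2518 in *hot3-3*, against 5337 and 5465 in WT and 4257 and 3265 in *HOT3-EYFP*, a log2 ratio of -1.13. *MIR156a*, which delays the change from juvenile to adult leaves, had 2972 and 2857 counts in *hot3-2* and 2675 and 2541 in *hot3-3*, against 6556 and 5790 in WT and 3437 and 3024 in *HOT3-EYFP*, a log2 ratio of -1.12. *MIR160c* (-1.64), *MIR164c* (-1.11), *MIR168a* (-1.24), *MIR156b* (-0.95) and *MIR8175* (-2.44) formed the other loci.

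Of the leaf and shoot markers, *MIR156a*, *MIR166a* (-1.36) and *MIR168a* had lower windows, whereas *MIR166b* (-0.29) and *MIR172a* (-0.80) had no call and overlapping groups. *MIR166a* held 7475 and 6823 counts in *hot3-2* and 5766 and 6165 in *hot3-3*, against 17958 and 19445 in WT and 8310 and 7570 in *HOT3-EYFP*. *MIR156a*, *MIR166a* and *MIR168a* were thus lower in the same libraries as the light-harvesting genes, but the genotypes with functional HOT3 were ordered differently. *MIR166a* and *MIR156a* had more counts in WT than in *HOT3-EYFP*. The light-harvesting genes held 0.590% and 0.613% of the nuclear counts in WT, against 0.917% and 0.921% in *HOT3-EYFP*. The chloroplast share of counts overlapped between the sides at 13.0% to 14.7% against 13.2% to 14.8%. The part of green tissue in these differences was not tested. *MIR167a*, *MIR156a* and *MIR166a* belong to families whose mature miRNAs come from several loci, so reads may be split among copies.

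tRNA genes had a lower window more often than a higher one. Of 262 measured, 20 had a lower window (7.63%, against 3.96% of all genes measured) and 3 a higher one (1.15%, against 3.75%). The list's median log2 ratio was -0.44. With the library total as library size 6 were lower, 6 higher and the median -0.10. The lower ones numbered 12 and 10 without *hot3-2* replicates 1 and 2 and 13 without *hot3-3* replicate 1. As a class, tRNA genes did not separate the sides. Their part of the nuclear counts ranged over 4.48% to 6.44% in the alleles and 5.75% to 7.49% with functional HOT3. Both *hot3-2* libraries fell below all 4 of the latter. Both *hot3-3* libraries (6.19% and 6.44%) exceeded those of WT (5.75% and 6.05%). The tRNA-Ala gene AT3G63003 held the most reads of the lower tRNA loci, 2221 and 2384 in *hot3-2* and 3249 and 3494 in *hot3-3*, against 4501 and 5146 in WT and 6883 and 5702 in *HOT3-EYFP*, with a log2 ratio of -1.38 over 2 windows. At the tRNA-Gln gene AT3G48745 the locus had a log2 ratio of -2.32. Other tRNA genes with large log2 ratios were AT1G21420 (tRNA-Gln, -2.29), AT2G07792 (tRNA-Tyr, -1.99), AT1G70050 (tRNA-Pro, -1.96) and, higher, AT5G65015 (tRNA-Arg, 1.41). AT3G61545 (tRNA-Glu) had 50 and 60 counts in *hot3-2* and 185 and 0 in *hot3-3*, against 236 and 235 in WT and 341 and 401 in *HOT3-EYFP*, so its replicates differed widely. tRNA genes occur in near-identical copies, and the genes that received the reads are uncertain.

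Lower loci of 24-nt reads were short. AT1G81020, a transcribed pseudogene near the end of chromosome 1 (chr1:30427200-30427499), was the only lower locus of 3 or more windows led by 24-nt reads, and 2 of its windows were called at 24 nt. It held 280 and 291 counts in *hot3-2* and 232 and 300 in *hot3-3*, against 507 and 522 in WT and 475 and 379 in *HOT3-EYFP*, a log2 ratio of -1.15, with 50.4% of 24 nt. An intergenic pair of windows 37 bp from AT4G01490 (chr4:630900-631099) had a log2 ratio of -1.75 with 58% of 24 nt. Of 1118 pseudogenes measured, 4 had a higher window (0.358%, against 3.75% of all genes measured) and 6 a lower one (0.537%, against 3.96%). The greatest ratio among them, 3.3 at AT1G57710, came from 18-nt reads (74.8%), and AT4G07856 (1.16), AT4G07970 (0.98), AT4G05583 (0.81), AT5G28440 (-1.02), AT5G20800 (-0.63), AT2G36402 (-0.60) and AT3G50625 (-0.59) had 24 nt as their leading length.

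Genes of RNA silencing itself, sources of siRNAs among auxin receptors and *MYB* genes, and ribosomal protein genes held few sRNAs and no calls. Of 18 silencing genes, 4 were measured, with 0 higher and 0 lower, and the same was found for 3 auxin and *MYB* genes and 8 ribosomal protein genes. Over all genes measured the shares were 3.75% higher and 3.96% lower, so 0 calls in lists this small say little about these genes. The median log2 ratios of the 3 lists were 0.27, -0.57 and 0.17.

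The lengths at higher and lower loci differed. Higher loci had a leading length of 21 nt in 15 of 31 and of 24 nt in 7, whereas lower loci had 21 nt in 6 of 35 and 24 nt in 6. The leading length held a median of 42.6% of the reads at higher loci and 16.2% at lower loci, and over 25% at 27 and 15 of them. Over the higher loci the median share was 25.7% at 21 nt, 13.5% at 22 nt and 10.9% at 24 nt. Over the lower loci it lay between 7.31% and 12.1% at every length from 18 nt to 26 nt. For single windows the directions were closer, with a median leading share of 47.3% in higher and 43.0% in lower windows.

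**Figure D3:**
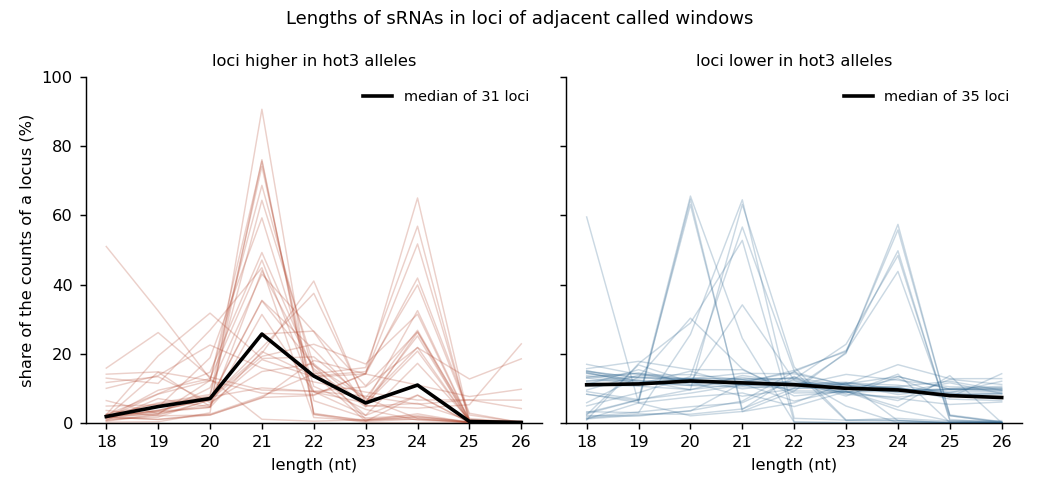
Share of the counts of a locus at each length from 18 nt to 26 nt, in percent (mean of the share in the alleles and in plants with functional HOT3), for the 31 loci higher in the *hot3* alleles (left) and the 35 loci lower in them (right). Thin lines are loci and the black line is the median, which peaks at 25.7% at 21 nt on the left and stays between 7.31% and 12.1% on the right.

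**Figure D4:**
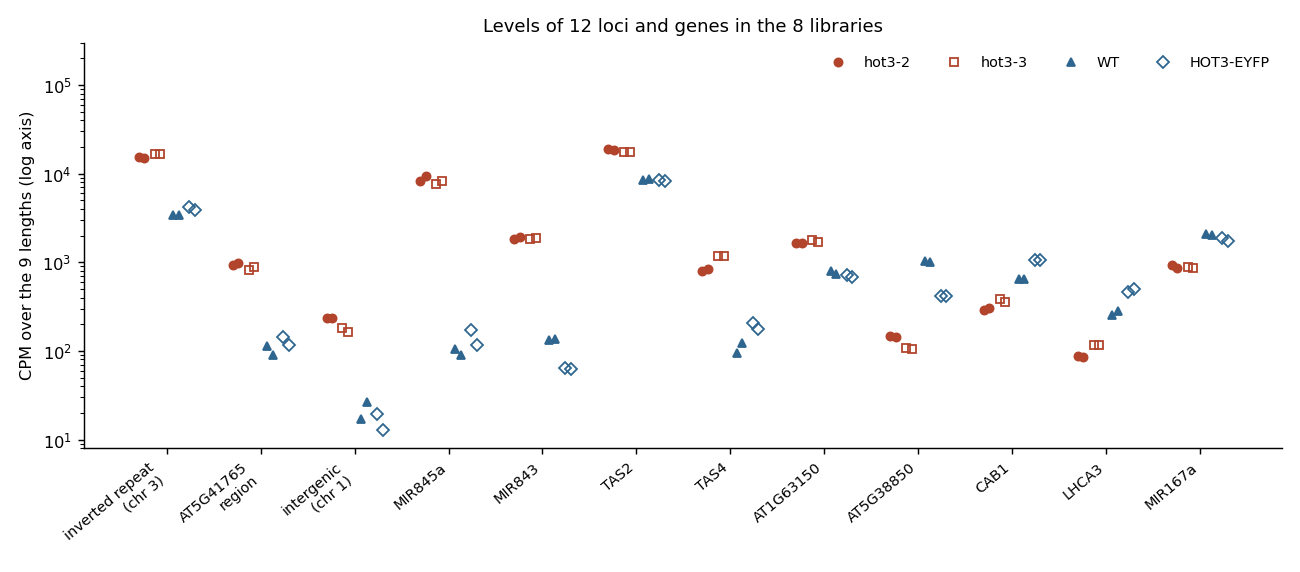
Levels of 12 loci and genes, in CPM over the 9 lengths on a log axis, in the 8 libraries, with the *hot3* alleles left of WT and *HOT3-EYFP* for each item. The alleles lie above the 4 others for the first 8 items, most at *MIR845a* with 7725 to 9350 against 90.2 to 170 CPM, and below them for the last 4.

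The length distribution of all nuclear sRNAs outside rDNA does not use the calls and was tested over libraries. The share of 24 nt came to 30.9% and 31.1% for *hot3-2* and 30.6% and 30.5% in *hot3-3*, against 35.6% and 35.6% in WT and 33.4% and 33.8% in *HOT3-EYFP*. It averaged 30.8% ± 0.26 in the alleles and 34.6% ± 1.2 with functional HOT3 (SD, n = 4 each), a difference of -3.87 percentage points (two-sided exact permutation test, *P* = 0.0286, adjusted *P* = 0.0429 over 9 lengths). The smallest *P* this test allows is 0.0286. The 22-nt share was 11.4% ± 0.26 in the alleles and 10.12% ± 0.068 in the others (SD, n = 4 each), 1.33 points higher, and the 23-nt share differed by -0.611 points (adjusted *P* = 0.0429 for each, exact permutation).

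The 18-nt, 19-nt and 20-nt shares were 0.896, 1.82 and 1.12 points higher in the alleles (adjusted *P* = 0.0429 for each, exact permutation). For the 21-nt share the difference was 0.286 points (adjusted *P* = 0.657, exact permutation), for 25 nt -0.369 points (adjusted *P* = 0.482, exact permutation) and for 26 nt -0.594 points (adjusted *P* = 0.220, exact permutation). Without the 10 windows with the most counts, the differences at 22 nt and 24 nt kept their direction at 1.71 and -3.78 points, and that at 21 nt was 2.13 points (adjusted *P* = 0.0857 for each, exact permutation). Those at 18 nt, 19 nt and 20 nt were smaller, 0.572, 0.187 and 0.228 points (adjusted *P* = 0.3, 0.418 and 0.3, exact permutation). Without any 1 library of WT or *HOT3-EYFP* the calls were kept. Without any 1 library of the alleles the adjusted *P* was 0.0643 at 19 nt, 20 nt, 22 nt and 24 nt, 0.103 at 23 nt and 0.129 to 0.184 at 18 nt (exact permutation), with the directions kept. Without the chromosome 3 repeat, an alternative chosen after seeing the data, share differences came to 0.785 and -3.62 points at 22 nt and 24 nt, with the calls kept.

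**Figure D5:**
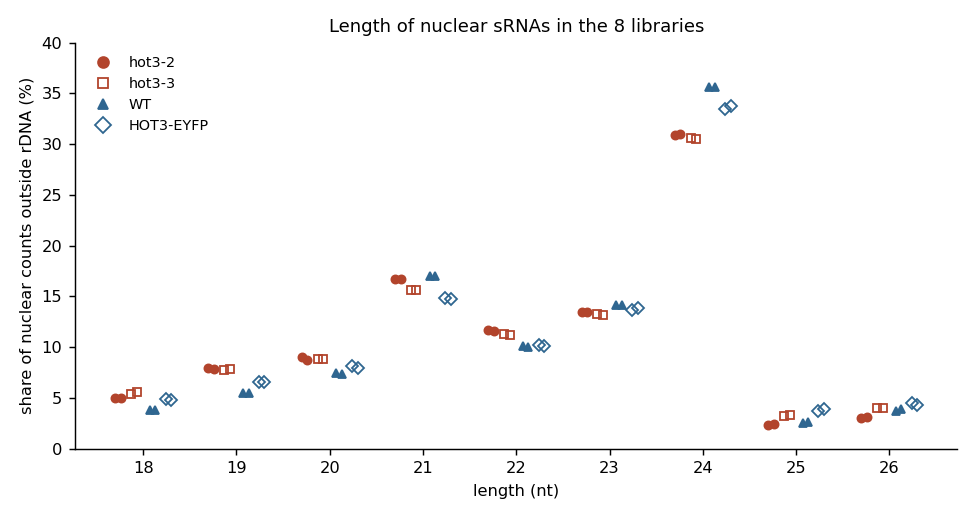
Share of each length among nuclear counts outside rDNA, in percent, in the 8 libraries, with the *hot3* alleles left of WT and *HOT3-EYFP* at each length. The 24-nt share of the alleles, 30.5% to 31.1%, lies below that of the 4 others, and the 22-nt share lies above.

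The place of all sRNAs of a length along the chromosomes was tested in the same way. Gene-poor bins held 38.7% and 38.6% of the 24-nt counts in *hot3-2* and 37.7% and 37.6% in *hot3-3*, against 35.4% and 35.2% in WT and 34.2% and 34.2% in *HOT3-EYFP*. The means were 38.2% ± 0.55 in the alleles and 34.8% ± 0.65 in the others (SD, n = 4 each), 3.40 points higher (adjusted *P* = 0.0286 over 3 lengths, exact permutation). At 22 nt the share was 34.3% ± 0.65 against 31.4% ± 0.82 (2.99 points), and at 21 nt 14.7% ± 0.17 against 13.7% ± 0.38 (0.987 points), each with SD, n = 4 and adjusted *P* = 0.0286 by exact permutation. Without any 1 library of the alleles the adjusted *P* at 21 nt was 0.0571 (exact permutation), and the calls at 22 nt and 24 nt were kept. The 21-nt difference was 0.238 points (adjusted *P* = 0.0857, exact permutation) when gene-poor meant under 25% of bases in genes. The permutation treats libraries of a genotype as independent.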

How the data were processed

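Small RNA of 18 nt to 40 nt was cut from a gel and sequenced for 8 libraries, 2 of each of the genotypes *hot3-2*, *hot3-3*, WT and *HOT3-EYFP*. The authors deposited raw counts per 100-bp genome window, with a separate column for sRNAs of every length between 18 nt and 26 nt, without strand and without normalization. The submitters' processing notes name Bowtie, cutadapt 4.2, featureCounts 2.0.3 and DESeq2 1.34.0. How reads with several matches were placed is not given in the sources used here, and values in repeated sequence depend on that choice. A count carries counting error, and PCR copies cannot be told apart, so a floor of 3 counts covers counting error only.

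Nuclear windows outside rDNA with 10 counts in 2 libraries were fitted at each length with edgeR 4.0.16 (R 4.3.3, TMM, quasi-likelihood), 2 groups of 4 libraries, Benjamini-Hochberg within a length. The procedure was tested on simulated data. edgeR's test gives no standard error. Those printed are approximate, derived as the absolute log2 fold change divided by the square root of the *F* statistic. Levels of loci and genes are TMM-scaled CPM over the 9 lengths, and log2 ratios use a pseudocount of 0.5 counts. A gene is measured when one of its windows, with at least 50 bp of overlap, was tested. Shares were compared over libraries with exact permutation tests. Inverted repeats were aligned with blastn 2.17.0, and sequences and annotation are from RefSeq (TAIR10.1). Replicates were not duplicates (chi-square per degree of freedom 4.41 to 7.09).

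Loci were named when they were among the 10 with the most windows, the 5 with the most counts or the first at a length in a direction, and genes when they were among the 8 of a list with the greatest absolute log2 ratio and a called window. Members and lists were chosen with earlier results of these data known. The light-harvesting list, the inverted-repeat measure, *MIR825*, *MIR828*, the windows at 0 and further members named as examples were chosen after values were seen. Alternatives were other scalings, filters, tests, limits, adjacency rules and subsets of libraries.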

Additional observations from a re-analysis of the deposited data

Results flagged for a closer look

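In 3 cases a single library stood far from the other 3 of its side by Dixon's criterion, which chance meets in about 1 of 20 groups. The criterion was applied to each side of every named locus, named gene and share, so several such cases arise by chance. *MIR5028* had 77.0 CPM in *hot3-2* replicate 1, the highest of the 4 libraries of the alleles, which began at 57.0 CPM. The snoRNA gene AT3G03415 had 88.0 CPM in *hot3-3* replicate 1, against 67.2 CPM in the lowest library of the alleles. The snoRNA gene AT1G04223 had 23.7 CPM in WT replicate 1, against 16.5 CPM in the lowest library with functional HOT3. All 3 genes had a higher window in the alleles, and the sides did not overlap in any of them.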

How the results depend on the processing

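Depth limits windows of few counts. With the library total as library size there were 44 lower windows at 21 nt, 271 higher and 36 lower at 22 nt, 17 lower at 24 nt, 57 higher and 10 lower loci, and the log2 ratio of AT2G13450 was 0.0745. With an adjusted *P* under 0.05 and 2-fold there were 227 lower at 21 nt, 268 and 274 at 22 nt, 495 and 361 at 24 nt, and 88 and 95 loci. *hot3-2* alone gave 103 and 32 at 21 nt, 89 and 48 at 22 nt, 63 and 12 at 24 nt, and 17 and 8 loci. *hot3-3* alone gave 110 and 17, 91 and 14, 68 and 5, and 15 and 1. At 24 nt there were 332 and 333 with no filter, 277 higher with genotype as factor, and lower 136 by DESeq2's Wald test, 147 with no fold limit and 131 with Benjamini-Hochberg over all 9 lengths. DESeq2's Wald test called 89, 101 and 136 lower windows at 18 nt, 19 nt and 20 nt. Lower loci numbered 20 with WT alone as control and 21 with calls at 21 nt, 22 nt or 24 nt only. The cause of these changes was not tested. Fewer libraries entered the fits of single genotypes and those with WT alone as control.

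Without the 10 windows with the most counts the differences in length share were 0.572 (18 nt), 0.187 (19 nt), 0.228 (20 nt), 2.13 (21 nt), 1.71 (22 nt), -0.383 (23 nt) and -3.78 points (24 nt), with no call, and the 21-nt gene-poor difference was 0.238 points with the 25% limit. Leaving out each library gave 62 to 96 lower windows at 21 nt, 51 to 95 at 22 nt and 32 to 66 at 24 nt, 98 to 154 higher at 24 nt, 130 to 152 at 21 nt and 114 to 129 at 22 nt, 19 to 31 higher and 16 to 33 lower loci. It gave length share differences of 0.726 to 1.08 (18 nt), 1.63 to 2.00 (19 nt), 0.993 to 1.27 (20 nt), -0.104 to 0.652 (21 nt), 1.24 to 1.41 (22 nt), -0.715 to -0.533 (23 nt), -4.27 to -3.53 (24 nt), -0.583 to -0.139 (25 nt) and -0.752 to -0.421 points (26 nt). The 21-nt difference turned to -0.0539 and -0.104 without *HOT3-EYFP* replicates 1 and 2. The share calls were kept without any 1 library of WT or *HOT3-EYFP*. Without any 1 library of the alleles the adjusted *P* (exact permutation) was 0.0643 to 0.184 for the lengths called, and for gene-poor shares 0.0571 at 21 nt and 0.0429 at 22 nt and 24 nt. Gene-poor differences ranged over 0.846 to 1.14 (21 nt), 2.75 to 3.28 (22 nt) and 3.21 to 3.61 points (24 nt).

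The replicate numbers do not pair the samples, with correlations of deviations from -0.0127 to 0.0164 over 51457 windows. With a replicate block there were 142 higher and 85 lower windows at 21 nt, 129 and 84 at 22 nt, 126 and 63 at 24 nt, and 26 and 26 loci.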
